A study of Mus musculus with 12 samples.

Results

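The enzymes of the sterol ring steps carry squalene, the last linear intermediate of cholesterol synthesis, to cholesterol. Probe sets annotated to 10 of these enzymes were taken from the deposited table: Sqle, Lss, Cyp51, Tm7sf2, Msmo1, Nsdhl, Hsd17b7, Ebp, Sc5d and Dhcr7. Each had 1 probe set that carries a single gene symbol, so the members were 10 of 35557 probe sets and 10 of 19938 genes tested. Probe sets annotated to several symbols were not searched for the members. The data were RMA expression values on the log2 scale from 12 whole livers, 1 Affymetrix array each. The tested genotype was SIRT3KO, which lacks the mitochondrial deacetylase SIRT3, and its control was SIRT3WT. Each genotype was fed a high-fat Western diet with 42% fat, started at weaning, or a standard diet, which gave 4 groups of 3 mice: SIRT3KO high-fat, SIRT3WT high-fat, SIRT3KO standard and SIRT3WT standard. All mice were of strain 129Sv, were 12 weeks old and had been fasted for 24 hours, so every level below is that of a fasted liver. The sex of the mice, the time of killing and the construction of the knockout allele are not given in the sources used here.

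The ring steps take place in the endoplasmic reticulum. Squalene is first oxidised and folded into the ring compound lanosterol, which is then stripped of methyl groups, has its double bonds moved and reduced, and becomes cholesterol. The genes of the pathway are known as targets of SREBP2, a transcription factor that is held in the membrane when sterols are plentiful and released when they are scarce, and liver is a main site of this synthesis. Within the pathway Sqle is the squalene epoxidase, Lss the cyclase that makes lanosterol, and Cyp51 the cytochrome P450 that removes the first methyl group. Tm7sf2 reduces the double bond that Cyp51 leaves. Msmo1, Nsdhl and Hsd17b7 act in turn, as oxidase, decarboxylating dehydrogenase and ketone reductase, to remove the other two methyl groups. Ebp moves a double bond within the ring, Sc5d introduces another, and Dhcr7 reduces one in the last ring reaction.

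The promoters of these genes are shown because the members moved together between the diets, as given below. Windows from 250 bases before to 50 bases after a gene's start were taken from RefSeq (GRCm38.p6), with 11 windows for 9 members. Sqle was not listed. Searched on both strands were CCAAT (the NF-Y box), GGGCGG (the Sp1 box), CACGTG (an E-box) and TCACNCCAC (a core of the sterol regulatory element), and no matches of different motifs overlapped. All 9 members held both a CCAAT and a GGGCGG in at least 1 window. Of the 15614 tested genes with a window, 41.7% held CCAAT, 52.9% held GGGCGG and 22.2% held both. In each of the 9 members a CCAAT match lay within 75 bases before a start, a distance chosen after the letters were seen, as in 18.3% of tested genes. CACGTG was found in 3 members (Hsd17b7, Sc5d and a window of Dhcr7), against 9.50% of tested genes, and TCACNCCAC in 0 members, against 1.40%. Other spellings of the sterol regulatory element were not searched, so this count does not show that the members lack such elements. The median GC content was 64.0% in the members' windows and 52.7% in all windows, and its part in these counts was not tested. Shown are 4 members that fell in both genotypes and then Ebp and Sc5d, which passed in neither genotype, 5′ to 3′ on the gene's strand with every match to a searched motif in capitals.
Cyp51, GRCm38.p6, chr5:4104648-4104947, minus strand: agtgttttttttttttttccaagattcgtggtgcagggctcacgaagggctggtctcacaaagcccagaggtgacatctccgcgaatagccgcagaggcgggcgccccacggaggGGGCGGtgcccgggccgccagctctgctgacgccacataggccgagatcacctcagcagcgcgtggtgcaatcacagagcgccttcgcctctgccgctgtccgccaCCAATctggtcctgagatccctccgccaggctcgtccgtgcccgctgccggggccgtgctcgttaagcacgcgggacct
Msmo1, GRCm38.p6, chr8:64733529-64733828, minus strand: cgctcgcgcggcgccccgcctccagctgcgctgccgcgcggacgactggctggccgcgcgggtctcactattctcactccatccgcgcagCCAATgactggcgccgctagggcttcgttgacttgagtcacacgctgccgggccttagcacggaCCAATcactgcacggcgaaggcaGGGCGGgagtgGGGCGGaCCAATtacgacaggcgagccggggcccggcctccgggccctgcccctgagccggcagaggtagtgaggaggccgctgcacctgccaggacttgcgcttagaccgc
Nsdhl, GRCm38.p6, chrX:72918271-72918570, plus strand: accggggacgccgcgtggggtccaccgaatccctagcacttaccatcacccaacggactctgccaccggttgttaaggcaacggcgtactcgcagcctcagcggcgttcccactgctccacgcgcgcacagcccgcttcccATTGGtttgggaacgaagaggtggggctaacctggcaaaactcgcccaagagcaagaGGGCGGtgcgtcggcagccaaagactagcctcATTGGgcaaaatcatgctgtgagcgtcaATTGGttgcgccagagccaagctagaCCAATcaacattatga
Tm7sf2, GRCm38.p6, chr19:6067801-6068100, minus strand: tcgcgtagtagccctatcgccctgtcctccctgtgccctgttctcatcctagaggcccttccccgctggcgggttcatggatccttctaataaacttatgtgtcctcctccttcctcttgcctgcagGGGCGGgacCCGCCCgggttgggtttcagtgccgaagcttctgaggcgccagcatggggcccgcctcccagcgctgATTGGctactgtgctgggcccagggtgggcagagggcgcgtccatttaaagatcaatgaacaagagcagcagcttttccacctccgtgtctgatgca
Ebp, GRCm38.p6, chrX:8193463-8193762, minus strand: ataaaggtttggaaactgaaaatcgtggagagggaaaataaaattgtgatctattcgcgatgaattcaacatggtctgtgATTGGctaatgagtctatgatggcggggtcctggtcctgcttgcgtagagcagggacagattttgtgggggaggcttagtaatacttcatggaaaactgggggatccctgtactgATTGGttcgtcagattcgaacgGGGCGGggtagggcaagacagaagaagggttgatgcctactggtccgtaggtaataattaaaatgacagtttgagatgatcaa
Sc5d, GRCm38.p6, chr9:42264251-42264550, minus strand: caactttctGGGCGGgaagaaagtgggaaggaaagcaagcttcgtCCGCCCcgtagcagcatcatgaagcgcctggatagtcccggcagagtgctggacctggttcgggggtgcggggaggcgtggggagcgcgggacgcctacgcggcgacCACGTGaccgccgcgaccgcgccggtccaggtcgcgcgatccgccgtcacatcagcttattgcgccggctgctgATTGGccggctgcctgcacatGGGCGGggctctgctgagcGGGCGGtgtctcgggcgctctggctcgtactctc

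In these windows Msmo1 held 3 CCAAT matches, at positions -160, -96 and -55 from the start, and 2 GGGCGG matches at -73 and -62. Cyp51 held 1 of each, at -29 and -135. Ebp, which passed in neither genotype alone, held 2 CCAAT matches and 1 GGGCGG match. Sc5d held 1 CCAAT match, 4 GGGCGG matches and 1 CACGTG match. A match is a run of letters, and no binding was measured.

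The tissue and the knockout were checked first. All 9 measured hepatocyte markers were bright, from 11.5 (Hnf4a) to 14.2 (Apoa1) on the log2 scale, and their mean level lay at most 0.06 from the mean of a diet on any array. Sirt3 itself read 8.92, 8.49 and 8.87 in SIRT3KO high-fat livers, against 9.29, 9.14 and 9.13 in SIRT3WT high-fat livers. On the standard diet it read 8.83, 8.94 and 8.95 in SIRT3KO livers, against 8.97, 9.04 and 9.13 in SIRT3WT livers. The knockout arrays lay below the control arrays on both diets, but neither difference passed the test (limma adjusted p = 1 on the high-fat diet and 0.66 on the standard diet), and the files do not place the probes relative to the deletion, so this signal cannot check the genotype. One array stood apart: SIRT3KO standard replicate 1 lay 2.09 above the mean of its diet over 11 acute-phase genes, while the other arrays of that diet lay between -0.51 and -0.35. The high-fat SIRT3WT replicate 3 lay 0.42 above its diet's mean over 8 macrophage markers. Between the diets, limma called 0 of 8 macrophage markers, 0 of 8 stellate cell markers and 0 of 9 hepatocyte markers in either genotype. It called 1 of 6 endothelial markers higher and 1 of 6 bile duct markers lower in each genotype, and 0 of 7 lymphocyte markers in the knockout and 3 of 7, all higher, in the wild type. Over all genes 2.45% were called higher in the knockout and 4.30% in the wild type, and 2.66% and 1.69% lower. Averaged over genotypes, 2 of 8 stellate cell, 1 of 6 endothelial and 3 of 7 lymphocyte markers were called higher. In that comparison 1 of 9 hepatocyte and 2 of 6 bile duct markers were called lower, and 0 of 8 macrophage markers were called. Of all 19938 genes 2049 were called higher there and 1533 lower. The part of these markers in the results was not tested. The diets also differ in handling. On all 6 standard-diet arrays 335 probe sets lacked a value that all high-fat arrays had, and pairs of arrays of different diets gave the same value in at most 1 probe set, against 11 to 31 within the standard diet and 2 to 15 within the high-fat diet. The diets were therefore treated as 2 separate normalization runs, which the labels do not state, and every comparison of diets lies across them. Comparisons of genotype lie within a run.

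**Figure D1:**
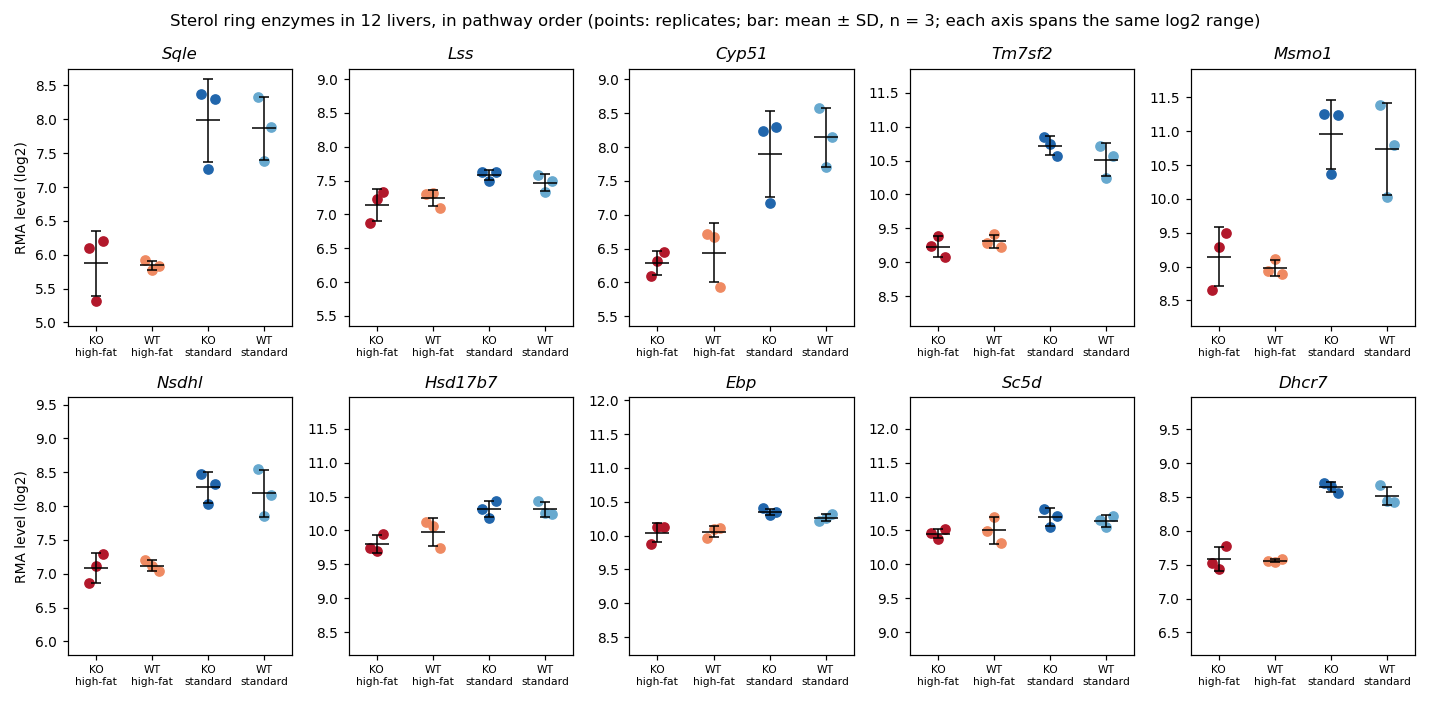
RMA level (log2, vertical axis) of the 10 enzymes in each of the 12 livers, grouped as SIRT3KO high-fat, SIRT3WT high-fat, SIRT3KO standard and SIRT3WT standard. Points are arrays and bars the mean ± SD (n = 3). In 9 of the 10 panels all 6 high-fat arrays lie below all 6 standard-diet arrays, Sc5d being the exception. For Lss the nearest arrays of the diets both round to 7.33.

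The first question of the design is what the high-fat diet did to these enzymes. Sqle, Cyp51, Tm7sf2, Msmo1, Nsdhl and Dhcr7 were lower on the high-fat diet in both genotypes, by between 1.94- and 4.33-fold. Lss and Hsd17b7 fell by less, passing the test in the knockout but not in the wild type, and the difference between the genotypes was not called for either (interaction, adjusted p = 0.945 for both). Ebp and Sc5d passed in neither genotype. In the knockout 8 of 10 members fell and in the wild type 6 of 10, against a background of 2.66% and 1.69% of all genes called lower (limma, Benjamini-Hochberg adjusted p under 0.05 over 19938 genes). Averaged over genotypes 9 of 10 fell, against 7.69%. Without SIRT3KO standard replicate 1 and SIRT3WT high-fat replicate 3, which stood apart above, 7 of 10 fell in the knockout, 6 of 10 in the wild type and 8 of 10 averaged, an alternative added after the data were seen. No member was called higher, where 2.45% and 4.30% of genes were. The median difference over the members was -1.13 in the knockout and -1.01 in the wild type, while that over all genes was -0.01 and 0.04. The labels name mice and livers but do not say how the 3 samples of a group were kept apart, so the p-values measure the spread between these samples. Because whole livers were used, fewer cells that express a gene and less RNA per cell cannot be told apart here.

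An allowance for the runs changes how many of these differences pass. When a variance for an offset between the runs was added, with an SD of 0.215 estimated from 1230 dim olfactory, vomeronasal and taste receptor genes, 0 of 10 members passed in either genotype and 1 of 10, Sqle, averaged over genotypes (adjusted p = 0.0138 in that fit). Those receptor genes had a median level of 4.23, against 6.7 over all genes, and the members lay between 5.32 and 11.39. Whether an offset of that size holds at the members' levels was not tested. The number of genes called in the fit with the added variance was 5 in the knockout, 7 in the wild type and 9 averaged. The members' differences are the same in that fit and their standard errors larger, so each fall below is one across the runs, and diet and run cannot be told apart.

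Squalene epoxidase, the entry to the ring steps, differed most. Sqle stood at 6.10, 5.32 and 6.20 in high-fat SIRT3KO livers, against 8.38, 7.27 and 8.30 in standard-diet SIRT3KO livers. In SIRT3WT livers it stood at 5.92, 5.78 and 5.83 on the high-fat diet, against 8.33, 7.39 and 7.88 on the standard diet. All 6 high-fat arrays lay at or below 6.20 and all 6 standard-diet arrays at or above 7.27. Sqle fell 4.33-fold in the knockout (difference -2.11, SE 0.289, limma adjusted p = 0.00148) and 4.06-fold in the wild type (-2.02, SE 0.289, adjusted p = 0.00211). Ranked from the largest fall, it was number 2 of 19938 genes in both genotypes.

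Lanosterol synthase, the next enzyme, moved much less. Lss stood at 6.88, 7.23 and 7.33 in high-fat SIRT3KO livers, against 7.63, 7.50 and 7.62 in standard-diet SIRT3KO livers, and the groups did not overlap. The difference was -0.44 (SE 0.117, limma adjusted p = 0.046), and that call ended in 10 of 12 fits that left out 1 array (adjusted p between 0.0415 and 0.125 over the 12) and in 7 of 11 other fits. In the wild type Lss stood at 7.30, 7.31 and 7.10 on the high-fat diet, against 7.58, 7.33 and 7.50 on the standard diet. There the difference was -0.23, with a 95% interval of -0.48 to 0.02, and did not pass (adjusted p = 0.257).

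Cyp51 and Tm7sf2, which remove the first methyl group and reduce the double bond it leaves, both fell. Cyp51 stood at 6.09, 6.32 and 6.45 in high-fat SIRT3KO livers, against 8.24, 7.17 and 8.30 in standard-diet SIRT3KO livers. In SIRT3WT livers it stood at 6.71, 6.67 and 5.94, against 8.58, 7.71 and 8.15. It fell 3.07-fold in the knockout (-1.62, SE 0.284, limma adjusted p = 0.00591) and 3.26-fold in the wild type (-1.71, SE 0.284, adjusted p = 0.00475), and ranked number 6 in both. Replicate 2 of the standard-diet knockout was the lowest standard-diet array for Cyp51, and it still lay above all 6 high-fat arrays.

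Tm7sf2 was the member with the smallest p in both genotypes. It stood at 9.24, 9.38 and 9.07 in high-fat SIRT3KO livers, against 10.85, 10.74 and 10.57 in standard-diet SIRT3KO livers. In SIRT3WT livers the values were 9.29, 9.41 and 9.22, against 10.72, 10.25 and 10.57. The high-fat arrays reached 9.41 at most, and the lowest standard-diet array stood at 10.25. The fall was 2.82-fold in the knockout (-1.49, SE 0.121, limma adjusted p = 3.08e-05) and 2.30-fold in the wild type (-1.20, SE 0.121, adjusted p = 0.000188). Lbr, a protein of the nuclear envelope that carries the same reductase activity, stood at -0.22 in the knockout and -0.10 in the wild type and passed in neither (adjusted p = 0.144 and 0.506); whether it differs from Tm7sf2 was not tested.

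The 3 enzymes that remove the remaining methyl groups did not move by the same amount. Msmo1, the oxidase, stood at 8.66, 9.29 and 9.49 in high-fat SIRT3KO livers, against 11.26, 10.37 and 11.24 in standard-diet SIRT3KO livers. In SIRT3WT livers it stood at 8.93, 9.11 and 8.89, against 11.39, 10.03 and 10.80. The diets did not overlap in either genotype, although standard-diet replicate 2 was the lowest of its group in both. Msmo1 fell 3.50-fold in the knockout (-1.81, SE 0.299, limma adjusted p = 0.00465) and 3.40-fold in the wild type (-1.77, SE 0.299, adjusted p = 0.0051), numbers 3 and 4 in the ranking of falls.

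Nsdhl, the dehydrogenase that follows, stood at 6.86, 7.11 and 7.29 in high-fat SIRT3KO livers, against 8.47, 8.03 and 8.33 in standard-diet SIRT3KO livers. In SIRT3WT livers it stood at 7.20, 7.11 and 7.04, against 8.55, 7.86 and 8.16. All 6 high-fat arrays lay below all standard-diet arrays. It fell 2.28-fold in the knockout (-1.19, SE 0.162, limma adjusted p = 0.00148) and 2.10-fold in the wild type (-1.07, SE 0.162, adjusted p = 0.00289). Hsd17b7, the ketone reductase that completes the removal, lay between 9.70 and 9.95 in high-fat SIRT3KO livers, against 10.19 to 10.43 in standard-diet SIRT3KO livers. It fell 1.43-fold there (-0.52, SE 0.111, limma adjusted p = 0.0172), a call that ended without high-fat SIRT3KO replicate 2 (adjusted p = 0.0794). In the wild type Hsd17b7 lay between 9.74 and 10.13 on the high-fat diet, against 10.24 to 10.43 on the standard diet (-0.33, 95% interval -0.56 to -0.09, adjusted p = 0.0954).

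Among the last 3 reactions, Dhcr7 fell in both genotypes and the steps before it passed the test in neither genotype alone. Dhcr7 stood at 7.53, 7.43 and 7.78 in high-fat SIRT3KO livers, against 8.71, 8.66 and 8.56 in standard-diet SIRT3KO livers. In SIRT3WT livers it stood at 7.55, 7.54 and 7.59, against 8.67, 8.44 and 8.43. The diets did not overlap, and after Tm7sf2 the member had the smallest p, with falls of 2.09-fold in the knockout (-1.07, SE 0.102, limma adjusted p = 9.14e-05) and 1.94-fold in the wild type (-0.95, SE 0.102, adjusted p = 0.000232). Ebp, the isomerase, lay between 9.88 and 10.13 in high-fat SIRT3KO livers, against 10.31 to 10.40 in standard-diet SIRT3KO livers (-0.31, SE 0.0859, adjusted p = 0.0521). In the wild type Ebp lay between 9.96 and 10.11, against 10.22 to 10.32 (-0.21, adjusted p = 0.155), and it passed averaged over genotypes (-0.26, adjusted p = 0.00939). Sc5d, the desaturase, lay between 10.38 and 10.52 in high-fat SIRT3KO livers, against 10.55 to 10.82 in standard-diet SIRT3KO livers (-0.24, adjusted p = 0.182). In the wild type Sc5d overlapped between the diets, at 10.31 to 10.70, against 10.55 to 10.72 (-0.14, 95% interval -0.36 to 0.08, adjusted p = 0.437).

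**Figure D2:**
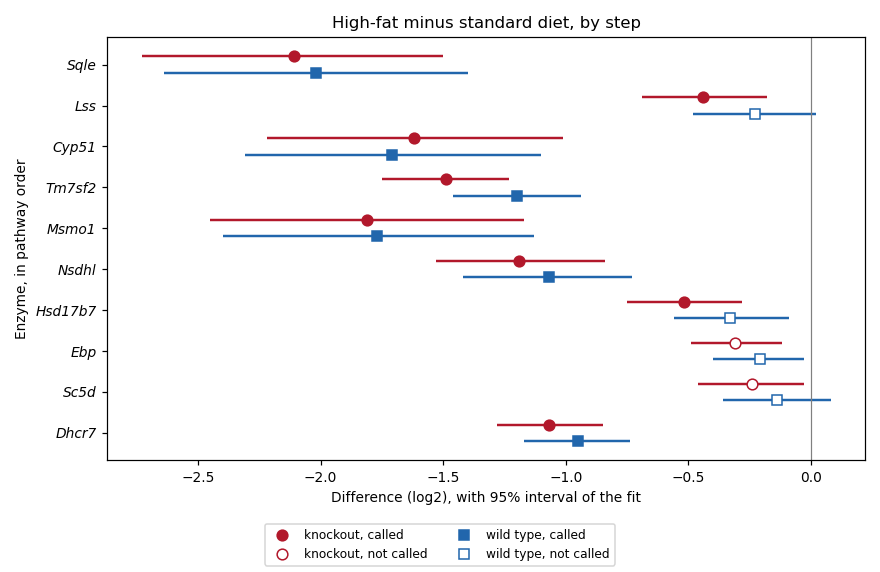
High-fat minus standard-diet difference (log2, horizontal axis) of each enzyme in pathway order, in the knockout (circles) and the wild type (squares), with the 95% interval of the fit across the runs; filled symbols passed the test. Differences run from -2.11 (Sqle, knockout) to -0.14 (Sc5d, wild type), and small falls (Lss, Hsd17b7, Ebp, Sc5d) stand between large ones.

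The size of a fall did not follow the order of the reactions. Large falls in Sqle, Cyp51, Tm7sf2, Msmo1, Nsdhl and Dhcr7 were separated by small ones in Lss, Hsd17b7, Ebp and Sc5d. In the wild type the 95% intervals of the first set ended at -0.73 or lower, while those of the second set began at -0.56 or higher. The sets were drawn up from these values and carry no test of their own, and probe sets can differ in how far they follow a change. In all 10 members both high-fat group means lay below both standard-diet group means. All 6 high-fat arrays lay below all 6 standard-diet arrays for 9 of 10 members, against 3.85% of all genes. For Lss that separation was very small, as the highest high-fat and the lowest standard-diet array both round to 7.33. Within the compared genotype, the diets did not overlap for 10 of 10 members in the knockout and 9 of 10 in the wild type, all with high-fat below, against 13.2% and 10.9% of genes.

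The second question is whether loss of SIRT3 changed these enzymes. On neither diet did a member pass the test between genotypes, and every member's ranges overlapped between SIRT3KO and SIRT3WT livers on both diets. On the high-fat diet limma called 0 of 10 members, and 0 had an unadjusted p under 0.05. Of all genes 0% were called there, and 571 of 19938 had such a p. On the standard diet it called 0 of 10, and again 0 had an unadjusted p under 0.05, while 0.00502% of genes (1 gene) were called and 1939 had such a p. Groups that do not overlap in either direction made up 6.69% of genes on the high-fat diet and 14.4% on the standard diet, and 0 members on each. Averaged over diets 0 of 10 passed, 0 had an unadjusted p under 0.05 (1323 of all genes did), and 0% of all genes were called.

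The intervals show what sizes of genotype difference remain possible. For Dhcr7 the knockout differed from the wild type by 0.02 on the high-fat diet (95% interval -0.20 to 0.24) and by 0.13 on the standard diet (-0.08 to 0.35). For Ebp the differences were -0.01 (-0.19 to 0.17) and 0.09 (-0.10 to 0.27). For Sc5d they were -0.05 (-0.26 to 0.17) and 0.05 (-0.16 to 0.27). For Lss they were -0.09 (-0.34 to 0.16) and 0.11 (-0.14 to 0.36). For these 4 enzymes every interval stayed between -0.34 and 0.36. The intervals of Sqle, Cyp51 and Msmo1 were the widest, and those of Hsd17b7 were narrower than those of Lss. On the high-fat diet Hsd17b7 had the largest difference in size. For Sqle the difference was 0.03 on the high-fat diet (-0.59 to 0.64) and 0.12 on the standard diet (-0.50 to 0.74). For Cyp51 it was -0.15 (-0.76 to 0.45) and -0.24 (-0.85 to 0.36). For Msmo1 it was 0.17 (-0.47 to 0.81) and 0.21 (-0.42 to 0.85). Nsdhl stood at -0.03 (-0.38 to 0.32) and 0.09 (-0.26 to 0.43). Tm7sf2 stood at -0.08 (-0.34 to 0.18) and 0.21 (-0.05 to 0.47), and Hsd17b7 at -0.18 (-0.42 to 0.06) and 0.01 (-0.23 to 0.24). On the standard diet 9 of 10 members were higher in the knockout, with a median of 0.10 against 0.04 over all genes. On the high-fat diet 7 of 10 were lower, with a median of -0.04 against -0.02. By these medians most genes went the same way on each diet, so the counts are not particular to the members. With median centring, Hsd17b7 (-0.07) and Sc5d (-0.02) were lower on the standard diet and Nsdhl and Ebp stood at 0.01.

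The interaction subtracts the wild type's diet difference from the knockout's and asks whether the genotypes answered the diet differently. An offset between the runs that is the same for both genotypes drops out of it. No member passed: limma called 0 of 10, and 0 at an unadjusted p under 0.05. Of all genes 0% were called, and 944 of 19938 had such an unadjusted p. The values lay between -0.29 for Tm7sf2 (95% interval -0.66 to 0.08, adjusted p = 0.945) and 0.09 for Cyp51 (-0.77 to 0.95, adjusted p = 0.986). The median was -0.11, against -0.05 over all genes. For Sqle the interval ran from -0.97 to 0.78 and for Msmo1 from -0.95 to 0.86, so these data leave the change of their diet difference loosely bounded. For Ebp, Sc5d and Dhcr7 the interval stayed between -0.42 and 0.21.

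**Figure D3:**
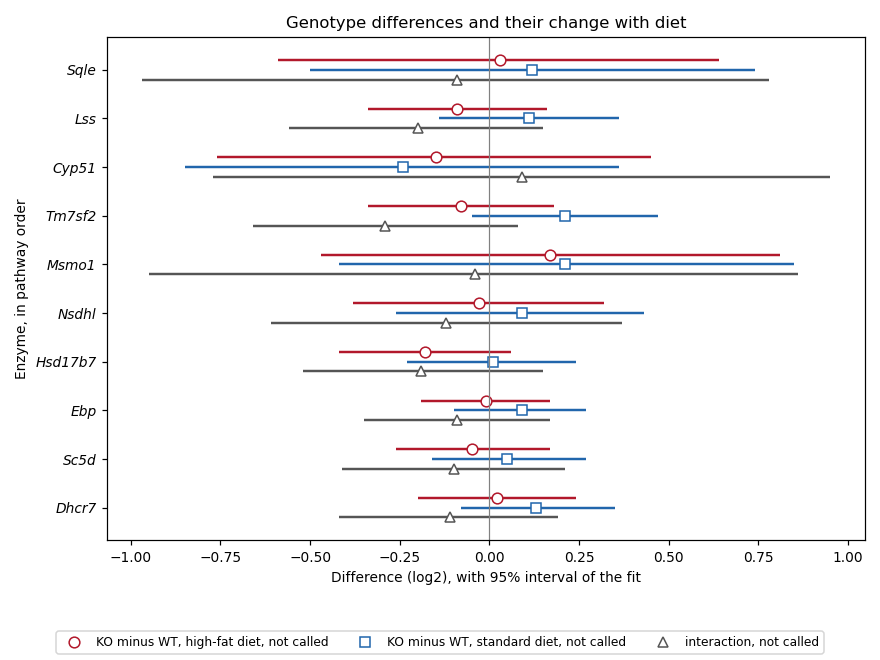
SIRT3KO minus SIRT3WT difference (log2, horizontal axis) on the high-fat diet (circles) and the standard diet (squares), and the interaction (triangles), for each enzyme in pathway order with the 95% interval of the fit. Every interval includes 0, and none of the 10 enzymes passed a test.

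The members also varied among mice fed the same diet, and several did so together. On the standard diet replicate 2 was low in both genotypes: the mean over the members lay -0.23 from the mean of the diet in SIRT3KO replicate 2 and -0.30 in SIRT3WT replicate 2, with 2 and 0 of 10 members above that mean. SIRT3KO replicates 1 and 3 lay at 0.21 and 0.14, and SIRT3WT replicates 1 and 3 at 0.21 and -0.03. Over the 7 measured enzymes of the mevalonate steps, which make squalene, the same arrays lay at -0.31 in SIRT3KO replicate 2 and -0.22 in SIRT3WT replicate 2. SIRT3KO standard replicate 1, the array with high acute-phase genes, had all 10 members above the diet mean, and the part of those acute-phase levels in this was not tested. On the high-fat diet the member mean stayed between -0.14 in SIRT3KO replicate 1 and 0.14 in SIRT3KO replicate 3. High-fat replicate 2 lay at -0.05 in SIRT3KO and 0.10 in SIRT3WT livers, with 5 and 8 of 10 members above the mean. For Sqle, replicate 2 was the lowest array in all 4 groups, at 5.32 and 5.78 in the high-fat groups. Nothing in the labels ties the 2 low arrays to each other or states that replicate numbers pair samples.

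Most of that spread came from 4 enzymes. Across the 6 standard-diet arrays Cyp51 spanned 1.42, Msmo1 1.36, Sqle 1.11 and Nsdhl 0.69 on the log2 scale, against a median span of 0.369 over all genes. Their residual SD within groups was 0.452, 0.481, 0.460 and 0.238, at the percentiles 99.3, 99.4, 99.3 and 92.3 of all genes. Ebp (0.0905, percentile 13.5) and Dhcr7 (0.118, percentile 32.9) were among the steadier genes, so Dhcr7 combined a large diet difference with a small spread. After the mean of each diet was removed, the correlation of a member with the mean of the other 9 over the 12 arrays was highest for Nsdhl (Pearson r = 0.94), Msmo1 (0.87), Cyp51 (0.77) and Lss (0.73). It was 0.68 for Sqle, 0.67 for Sc5d, 0.61 for Hsd17b7, 0.46 for Dhcr7, 0.37 for Tm7sf2 and 0.23 for Ebp. The median r of a member with single other genes lay between -0.06 and 0.10, a comparison with single genes and not with a mean of 9. The 95th percentile of that r was above the member's own value for Hsd17b7 (0.63), Dhcr7 (0.52), Tm7sf2 (0.60) and Ebp (0.54), and between 0.43 and 0.62 for the other 6. These are descriptions over 12 points that share arrays and runs.

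**Figure D4:**
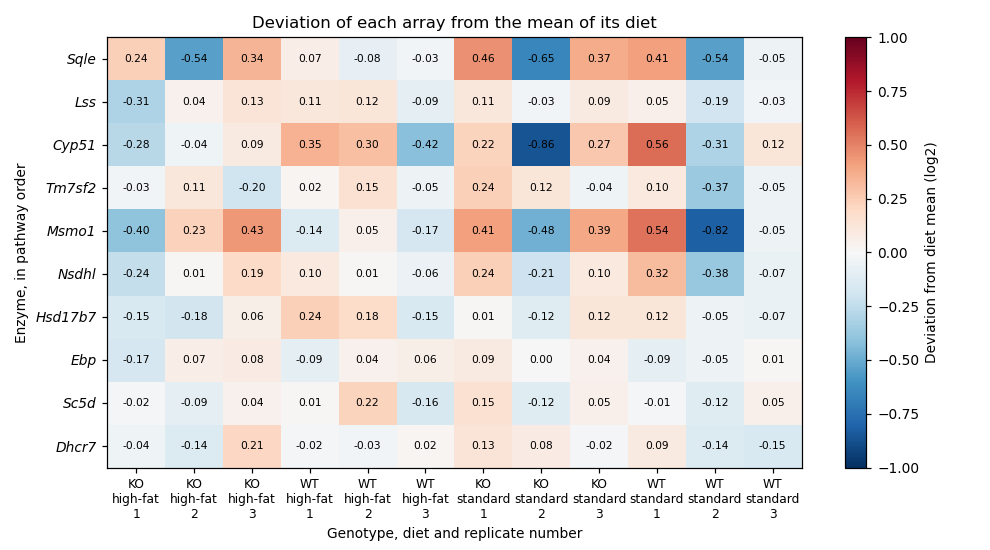
Deviation of each enzyme (rows, pathway order) from the mean of its diet on each array (columns), on the log2 scale, with red above and blue below that mean. Replicate 2 on the standard diet is blue in both genotypes for Sqle, Cyp51, Msmo1 and Nsdhl, down to -0.86 for Cyp51 in SIRT3KO, while the rows of Ebp and Dhcr7 are pale.

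The genes most like the members were ranked by the same measure. Outside the members, the highest Pearson r over the 12 arrays, with each diet's mean removed, was that of Prelid2 (0.90), followed by Hmgcs1 (0.89), Stard4 and Fdft1 (both 0.87), Rdh11 (0.86) and Birc7 (0.85). Rnf43 (0.84), Snx7, Trappc3l and Exoc3l2 (0.83 each) completed the first 10. These are the highest values out of all other genes, ranked over only 12 arrays. Such a selection can give a high r to unrelated genes, and this was not tested. The mean over the members was not scaled, so Cyp51, Msmo1 and Sqle, with the largest spread, weigh most in it. Hmgcs1 and Fdft1 belong to the steps before squalene, and Stard4 encodes a sterol carrier of the cytosol. Across the runs, high-fat minus standard, Hmgcs1 stood at -1.16 in the knockout and -0.84 in the wild type, Stard4 at -0.77 and -0.67, and Rdh11 at -0.65 and -0.61. Birc7 (0.12 and 0.20) and Rnf43 (0.25 and 0.66) lay on the other side of 0, so likeness among mice on a diet did not carry over to the diets for all 10.

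The remaining pathway was read from lists drawn up with earlier results of these data known. Of the mevalonate steps 7 of 9 were measured, and 5 fell in the knockout and 4 in the wild type (2.66% and 1.69% of all genes were called lower), with medians of -0.53 and -0.37. Fdps, which makes farnesyl diphosphate, fell in both genotypes, with differences of -1.77 in the knockout and -1.56 in the wild type (limma adjusted p = 5.99e-05 and 0.000201). Idi1, Pmvk and Hmgcs1 passed in both genotypes, and Mvd in the knockout (-0.53, adjusted p = 0.0358). Of the other ring proteins and electron donors 4 of 6 were measured. Erg28, a scaffold of the demethylation enzymes, was the 1 of these that fell, in both genotypes, at -0.69 in the knockout and -0.71 in the wild type (limma adjusted p = 0.00495 and 0.0046). The electron carriers Cyb5a and Cyb5r3 did not pass (0.23 and 0.17 in the knockout, 0.06 and 0.15 in the wild type).

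Among 9 measured of 13 genes of sterol sensing and uptake, 4 fell and 1 rose in the knockout, and 3 fell and 1 rose in the wild type. Of all genes 2.66% fell and 2.45% rose in the knockout, and 1.69% fell and 4.30% rose in the wild type. Srebf2, which encodes SREBP2, fell in both genotypes, at -0.65 in the knockout and -0.54 in the wild type (limma adjusted p = 0.00294 and 0.00694), as did Insig1, whose product holds the SREBP precursors in the membrane, at -0.96 and -0.93 (adjusted p = 0.00931 and 0.0103). Srebf1, whose product drives fatty acid synthesis, was the gene that rose, by 1.18 in the knockout and 1.27 in the wild type (adjusted p = 0.000609 and 0.000274). Like the members', these differences lie across the runs. No gene of the 3 lists passed between the genotypes on either diet or in the interaction (limma).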

How the data were processed

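Total RNA of 12 livers was hybridised under the Affymetrix whole-transcript protocol, per the labels' protocols. The deposited values are log2 levels that the authors obtained by RMA in Affymetrix Expression Console, per the submitters' processing notes. They were used as deposited, and whether the 4 groups were normalized together is not stated. Of 35557 probe sets, 21789 carry 1 gene symbol, 1621 several and 12147 none in the table used. Only those with 1 symbol were used. Where a gene had several of them, its brightest probe set by mean level stood for it, giving 19938 genes. Each member had 1 such probe set. limma 3.58.1 (R 4.3.3) was fitted to all 19938 genes and 4 groups with an intensity trend, with Benjamini-Hochberg adjustment and a threshold of 0.05. The 95% intervals come from that fit, and the number of arrays limits the precision. The fit was tested on simulated data with shifts in the SIRT3WT high-fat group only and no offset between runs. That test does not address the runs. Figures were drawn with matplotlib 3.10.9. Alternatives were moderation, groups fitted, a replicate block, array weights, filters, scaling, an offset between runs, and arrays left out. The labels do not state that replicate numbers pair the samples. Same-numbered samples of different groups had a median correlation of 0.05 (-0.271 to 0.407). For differently numbered ones it was -0.035 (-0.395 to 0.396). With 3 samples per group these ranges cannot decide whether the numbers pair the samples. Every member is named. Up to 4 genes of each other list are named by the smallest p of the averaged diet comparison, and 10 by likeness. Mvd was named after its values were seen. The members and lists were chosen with earlier results of these data known.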

Additional observations from a re-analysis of the deposited data

How the results depend on the processing

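The diet and the normalization run cannot be told apart, and with the variance for an offset between runs the members called numbered 0 of 10 in the knockout, 0 of 10 in the wild type and 1 of 10 averaged, against 8, 6 and 9 without it. Apart from that fit, members called for diet stayed between 7 and 9 in the knockout, 6 and 7 in the wild type and 8 and 10 averaged, and leaving out 1 array gave 6 to 9, 6 to 6 and 9 to 10. With a replicate block 7 members were called in the knockout and 6 in the wild type (1025 and 1158 genes, against 1018 and 1194). The block ended the call of Lss in the knockout (limma adjusted p = 0.0646). For Sqle it lowered the adjusted p from 0.00148 to 0.000109 in the knockout and from 0.00211 to 0.000129 in the wild type. For Cyp51, Tm7sf2, Msmo1, Nsdhl and Dhcr7 it raised the adjusted p in both genotypes. Whether the numbers pair the samples is not stated. Ebp gained a call in the knockout with array weights (adjusted p = 0.0487), with quantile normalization (0.0321) and without high-fat SIRT3WT replicate 3 (0.0493). With array weights Ebp also passed in the wild type (0.0221) and Sc5d averaged (0.0215), and Sc5d averaged passed without high-fat SIRT3WT replicate 2 (0.0294). Genes called for diet moved by over 1.5 times with array weights (2016 in the knockout and 3632 in the wild type), without dim genes (486, 480 and 2068 averaged, against 3582), with only the groups compared (381 in the knockout), without the 2 arrays that stood apart (625 in the knockout), with the offset (5, 7 and 9), and on leaving out 1 array (360 to 1286 and 389 to 1322). The split of genes called higher and lower depended on scaling in the wild type, at 858 and 336 as deposited, 451 and 621 with median centring and 669 and 472 with quantile normalization, and averaged, at 2049 and 1533 against 1548 and 2032 with median centring. Differences between genotypes near 0 changed sign, and none was called in any fit. On the high-fat diet these were, with array weights, Sqle (-0.28), Ebp (0.08) and Dhcr7 (-0.04), with quantile normalization Ebp (0.01), and without the 2 arrays Ebp (0.02). On the standard diet they were Hsd17b7 with array weights (-0.02) and median centring (-0.07), Sc5d with median centring (-0.02) and, without the 2 arrays, Sqle (-0.08), Nsdhl (-0.01) and Sc5d (-0.01). In the interaction they were Cyp51 (-0.00274) and Msmo1 (0.11) with array weights, Msmo1 with median centring (0.04) and, without the 2 arrays, Sqle (0.10) and Msmo1 (0.07). The cause was not tested. On leaving out 1 array, genotype differences on the high-fat diet ranged over -0.13 to 0.30 for Sqle, -0.18 to 0.04 for Lss, -0.16 to 0.00123 for Tm7sf2, -0.13 to 0.08 for Nsdhl, -0.06 to 0.07 for Ebp, -0.14 to 0.05 for Sc5d and -0.08 to 0.09 for Dhcr7. On the standard diet they ranged over -0.12 to 0.48 for Sqle, -0.46 to 0.12 for Cyp51, -0.14 to 0.54 for Msmo1, -0.08 to 0.27 for Nsdhl, -0.05 to 0.07 for Hsd17b7 and -0.01 to 0.13 for Sc5d. The interaction ranged over -0.45 to 0.18 for Sqle, -0.28 to 0.31 for Cyp51, -0.37 to 0.31 for Msmo1 and -0.30 to 0.05 for Nsdhl. Members called between genotypes or in the interaction numbered 0 in every fit, while genes called numbered 0 to 6 on the standard diet on leaving out 1 array. A fit with only the groups compared gives no value for the averaged comparisons or the interaction, which use all 4 groups.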

Other observations

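Fdft1, the squalene synthase that feeds the ring steps, was the enzyme directly before Sqle and did not pass the test for diet. It stood at 9.83, 10.10 and 9.94 in high-fat SIRT3KO livers, against 10.22, 9.66 and 10.14 in standard-diet SIRT3KO livers. In SIRT3WT livers it stood at 9.88, 9.96 and 9.67 on the high-fat diet, against 10.33, 9.66 and 9.89 on the standard diet. The diets overlapped in both genotypes, with differences of -0.05 in the knockout (95% interval -0.40 to 0.30, limma adjusted p = 0.894) and -0.12 in the wild type (-0.47 to 0.23, adjusted p = 0.715). Among mice on 1 diet Fdft1 was among the genes closest to the member mean (Pearson r = 0.87 over 12 arrays, each diet's mean removed), with standard-diet replicate 2 the lowest of its group in both genotypes. Fdft1 was singled out after its values were seen.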
